A study of Mus musculus with 24 samples.

Results

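The 6 matrix metalloproteinases (MMPs) *Mmp2*, *Mmp3*, *Mmp9*, *Mmp12*, *Mmp13*, and *Mmp14* and the 3 tissue inhibitors of metalloproteinases (TIMPs) *Timp1*, *Timp2*, and *Timp3* were followed through single-cell RNA sequencing of Panc02 tumors. The members were taken by gene symbol, and all 9 were found among the 32285 genes of the count matrix. Panc02 is a mouse pancreatic cancer cell line, and its cells had been injected subcutaneously into wild-type male C57BL/6 mice aged 6–7 weeks. Every mouse therefore carried the same tumor line, and by the labels the groups differed in the agents given. The 8 treatments were Isotype Control, Anti-PD-1, Anti-CTLA-4, Anti-PD-1 + Anti-CTLA-4, PancVAX + Anti-PD-1 + Anti-CTLA-4, PancVAX + Anti-CTLA-4, PancVAX + Anti-PD-1, and PancVAX with no checkpoint antibody, so that each of the 3 agents was present in 4 treatments and absent from the other 4. PancVAX is a neoantigen peptide vaccine that was given on days 12 and 19 with the adjuvant AddaVax and a STING agonist, while the other mice received PBS, so that peptides and adjuvants cannot be told apart in its effect. By the study's methods the Isotype Control and PancVAX groups received isotype antibodies in place of the checkpoint antibodies. Anti–CTLA-4 (100 µg) was given on days 15 and 22 and anti–PD-1 (100 µg) repeatedly, starting on day 12, and tumors were harvested on day 38. These days are those of the study's methods, and a figure legend gives earlier days for the second anti–CTLA-4 dose and for the harvest. Tumors were pooled by treatment, and each treatment gave 1 library of whole dissociated tumor and 1 library of cells enriched for immune cells on a Percoll gradient, for 16 libraries. The term pool stands for the 2 libraries of a treatment, and the labels do not say whether the same mice contributed to both.

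MMPs are zinc-dependent proteases that are made as inactive proenzymes and cut proteins of the extracellular matrix, and TIMPs bind and block their active sites. In tumors they are known from fibroblasts, which remodel collagen, and from macrophages, neutrophils, and endothelial cells, which use them when they enter tissue or form vessels. The gelatinases *Mmp2* and *Mmp9* cut denatured collagen and the type IV collagen of basement membranes, the stromelysin *Mmp3* cuts matrix proteins and activates other MMPs, the macrophage elastase *Mmp12* cuts elastin, the collagenase *Mmp13* cuts fibrillar collagen, and *Mmp14* is anchored in the membrane and activates the proenzyme of *Mmp2*. *Timp2* takes part in that activation, *Timp1* binds the proenzyme of *Mmp9*, and *Timp3* is held in the matrix and also blocks ADAM proteases.

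In the GRCm38.p6 annotation of RefSeq, *Mmp13* (chr9:7272514-7283333), *Mmp12* (chr9:7344397-7360461), and *Mmp3* (chr9:7445822-7455975) lay in this order within a single region of chromosome 9, and the other 6 members lay on 6 other chromosomes. Promoter windows, from 250 bases before to 50 bases after a transcript start, were at hand for 7 members, in 8 windows, and *Mmp2* and *Mmp9* had none. The AP-1 motif, searched as TGAGTCA and its reverse complement TGACTCA, was found before a start of *Mmp13* (35 bases before it), *Mmp12* (44 bases, in 1 of its 2 windows), and *Mmp3* (46 bases). Only the 250 bases before a start were searched, and the motif was not found there for *Mmp14*, *Timp1*, *Timp2*, and *Timp3*. Of all 32851 windows, 1466 (4.46%) held the motif in these 250 bases, as did at least 1 window of 1395 of 27025 genes (5.16%). For each member with a match, the 120 bases before that start are shown 5′ to 3′ on the plus strand with the motif in capitals. The start shown for *Mmp12* lies inside the gene span given above, and the 250 bases before the beginning of that span held no match.
Mmp13, chr9:7272394-7272513: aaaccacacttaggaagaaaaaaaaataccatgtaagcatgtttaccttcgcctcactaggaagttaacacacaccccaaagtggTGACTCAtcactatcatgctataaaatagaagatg
Mmp12, chr9:7347254-7347373: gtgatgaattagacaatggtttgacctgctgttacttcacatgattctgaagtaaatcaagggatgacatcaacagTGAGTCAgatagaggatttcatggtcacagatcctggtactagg
Mmp3, chr9:7445702-7445821: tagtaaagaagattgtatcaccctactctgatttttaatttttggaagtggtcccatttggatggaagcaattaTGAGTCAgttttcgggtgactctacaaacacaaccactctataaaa
A match is a description of the letters in these windows and does not show that a factor was bound there.

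The libraries held 77132398–176233225 unique molecular identifiers (UMIs, counts of single captured transcripts), and 57357 of 144994 barcodes passed the limits on cells (1793–7413 per library). Clusters built without the 9 members gave 12591 macrophage-like, 8094 neutrophil-like, 8495 tumor or epithelial-like, 264 stromal-like, and 266 endothelial-like cells, together 51.8% of the kept cells. Every marker of the macrophage (11), neutrophil (10), stromal (12), and endothelial (10) lists was raised in its class, and the stromal-like class also raised all 5 pericyte markers. The tumor or epithelial-like class raised 4 of its 9 markers, *Epcam* and *Cldn4* were under 5 counts per 1000000 UMIs (CPM) in it, and it also raised 6 of the 12 stromal markers, a larger share. It was named by its keratins, with *Krt8* at 655 and *Krt18* at 1287 CPM beside *Col1a1* at 10.6, where the sub-clusters of the stromal-like class held *Col1a1* at 1776–22128, so its name is less certain than the others. A cluster of 1994 cells that shared *Dcn* and *Lum* with the stromal list (7 of 12 markers raised) and also raised 4 of 9 tumor markers was kept apart from both classes. It held *Krt8* at 429 CPM beside *Col1a1* at 12.7. This *Col1a1* level was near that of the tumor or epithelial-like class and far below all sub-clusters of the stromal-like class. Its *Dcn* and *Lum* levels were above those of the tumor or epithelial-like class. The 2 libraries that stood apart were the Percoll library of PancVAX, which held 343 of the 349 cells of an unnamed cluster, and the Percoll library of PancVAX + Anti-PD-1, which held 7413 cells and 71 of the 264 stromal-like cells. The stromal comparisons of classes and the calls between preparations are also given without them. The limits on cells took a different share of each member: 59.4% of all *Mmp9* UMIs lay in kept cells, 39.8% of those of *Mmp13*, 32.3% of *Mmp12*, 24.5% of *Mmp2*, 12.5% of *Timp3*, 9.67% of *Mmp14*, 8.78% of *Timp2*, 7.52% of *Mmp3*, and 3.98% of *Timp1*. Of the cells that would enter without the upper limits on genes and UMIs, 19.0% of tumor or epithelial-like and 32.8% of stromal-like cells were kept, against 73.3% of macrophage-like cells and 8094 of 8097 neutrophil-like cells.

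The first comparison asked which cells carried each member. Levels are CPM of the UMIs summed over the cells of a class in a pool, as mean ± SD over 8 pools (7 for stromal-like cells, since no library of the Anti-PD-1 pool had 10 of them), and T or NK-like cells (13951 cells) served as the background. For neutrophil-like cells it may be too low a floor. Their clusters held *Krt18* at 83.9 and 68.1 CPM and *C1qa* at 130 and 185, against 17.2–30.9 and 45.8–53.9 in the clusters of T or NK-like cells. How much of the low levels in neutrophil-like cells, as of *Timp1* and *Mmp14*, came from other cells was not tested. Neighbors in the order of classes were compared within pools on log2(CPM + 1) by a two-sided exact permutation test that flips the sign of each pool's difference, with Benjamini-Hochberg adjustment over the 36 pairs of neighbors. The smallest p that this test allows is 0.00781 with 8 pools and 0.0156 with 7, which gave adjusted values of 0.0281 and 0.0375, and 15 of 36 pairs reached them. Only the members were tested in this way, so this count cannot be set against a share of all genes. In these tests and in those below, replicates are pools or libraries of pooled mice, so that p-values do not measure the spread between mice.

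The gelatinases were carried by different cells. *Mmp9* was a neutrophil gene, at 867 ± 82.3 CPM in neutrophil-like cells (lowest 805, median 838, highest 1066), against 32.4 ± 11.8 in macrophage-like cells (lowest 15.7, median 32.7, highest 53.5). Neutrophil-like cells were higher in 8 of 8 pools, by 4.78 on the log2 scale, and the groups did not overlap (exact permutation adjusted p = 0.0281). Macrophage-like cells in turn stood 3.36 above tumor or epithelial-like cells on the log2 scale (2.29 CPM; adjusted p = 0.0281, exact permutation test), whose level was near that of the T or NK-like background (1.36 CPM). *Mmp9* was at 0 UMIs in the 241 endothelial-like cells that were compared, which allows up to 2.74 CPM at a limit of 3 counts (counting error only). Among the endothelial-like cells of libraries with under 10 of them, which were not compared, 1 cell of the Percoll library of Anti-CTLA-4 held 5 *Mmp9* UMIs, and the whole class was at 4.17 CPM with it. *Mmp2* was highest in stromal-like cells, at 628 ± 196 CPM (lowest 356, median 700.0, highest 827), and second in macrophage-like cells, at 59.8 ± 15.3 (lowest 37.6, median 59.2, highest 80.5). The log2 difference was 3.33, with stromal-like cells higher in 7 of 7 pools (exact permutation adjusted p = 0.0375). Macrophage-like cells stood 4.47 above neutrophil-like cells on the log2 scale (adjusted p = 0.0281, exact permutation test), and *Mmp2* was at 3.73 CPM or less in neutrophil-like, endothelial-like, and tumor or epithelial-like cells, with 0.526 in the background.

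*Mmp3* was found in stromal-like and in tumor or epithelial-like cells. Stromal-like cells held 373 ± 318 CPM and spread widely between pools, with 864 in PancVAX + Anti-PD-1 and 802 in Anti-CTLA-4 but 131–250 in the other 5 pools. The pool of PancVAX + Anti-PD-1 entered with its Percoll library only, 1 of the 2 that stood apart. Tumor or epithelial-like cells held 70.7 ± 41.2 CPM (lowest 16.5 in Anti-CTLA-4, median 64.5, highest 149 in Isotype Control), 2.26 lower on the log2 scale in 7 of 7 pools (exact permutation adjusted p = 0.0375) and 4.64 above neutrophil-like cells (adjusted p = 0.0281, exact permutation test). The other 3 classes were at 1.74 CPM or less, with 0.441 in the background.

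The elastase *Mmp12* and the collagenase *Mmp13* had their highest means in macrophage-like cells among the 5 classes. Outside these classes the mean of *Mmp12* was higher, at 124 CPM in monocyte-like cells and 122 in a cluster with *Cd209a* among its leading genes. *Mmp12* reached 78.5 ± 28.8 CPM in macrophage-like cells (lowest 40.4, median 79.9, highest 123) and 4.59 ± 6.84 in tumor or epithelial-like cells, a log2 difference of 4.34 that was positive in 8 of 8 pools (exact permutation adjusted p = 0.0281). No *Mmp12* UMI was found in the 228 stromal-like cells compared, which allows up to 2.60 CPM at the same limit, and neutrophil-like cells averaged 3.14 CPM, where 24 of the 26 UMIs of the PancVAX + Anti-PD-1 + Anti-CTLA-4 pool lay in a single cell. *Mmp13* reached 236 ± 51.1 CPM in macrophage-like cells (lowest 171, median 226, highest 316). Stromal-like cells were second by their mean, at 102 ± 257, but their median was 9.16, because the PancVAX + Anti-CTLA-4 pool stood at 685 and all of its 89 UMIs lay in a single cell. The difference of macrophage-like from stromal-like cells, 5.06 on the log2 scale in 6 of 7 pools, did not pass the test (exact permutation adjusted p = 0.0662).

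*Mmp14* was the most widely spread protease. It held 473 ± 177 CPM in stromal-like, 285 ± 20.5 in macrophage-like, 284 ± 66.8 in endothelial-like, and 214 ± 19.2 in tumor or epithelial-like cells, and neighbors among these 4 classes differed by 0.63, 0.04, and 0.37 on the log2 scale, none of which passed the test (exact permutation adjusted p = 0.0662, 0.835, and 0.107). Neutrophil-like cells stood apart below them, at 18.4 ± 4.45 CPM, 3.51 lower on the log2 scale than tumor or epithelial-like cells in 8 of 8 pools (exact permutation adjusted p = 0.0281). The background was 5.56 CPM.

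Among the inhibitors, *Timp1* and *Timp2* were highest in stromal-like cells and *Timp3* had its highest mean in endothelial-like cells. *Timp1* held 771 ± 242 CPM in stromal-like cells (lowest 415, median 878, highest 1069) and 91.8 ± 19.4 in tumor or epithelial-like cells, a log2 difference of 2.99 in 7 of 7 pools (exact permutation adjusted p = 0.0375). Endothelial-like cells (64.3 ± 29.1) did not differ from tumor or epithelial-like cells beyond their spread (0.66 on the log2 scale, exact permutation adjusted p = 0.141), and neutrophil-like (10.8 ± 4.99) and macrophage-like cells (4.39 ± 2.08) followed, each lower than the class before it (exact permutation adjusted p = 0.0281 for both). The macrophage level was close to the background of 3.76 CPM. *Timp2* was at or above 51.6 CPM in all 5 classes, with 719 ± 224 in stromal-like, 311 ± 20.4 in tumor or epithelial-like, 119 ± 17.2 in macrophage-like, 108 ± 30.4 in endothelial-like, and 51.6 ± 9.05 in neutrophil-like cells, beside 30.3 in T or NK-like cells. For *Timp2* that background is no floor, since the 4 clusters of T or NK-like cells held 13.0, 24.3, 39.0, and 81.0 CPM, the last in the cluster with *Foxp3* and *Ctla4* among its leading genes, and neutrophil-like cells lay within this range. All neighbors in this order differed (exact permutation adjusted p = 0.0281 or 0.0375) except macrophage-like and endothelial-like cells (0.18 on the log2 scale, adjusted p = 0.346, exact permutation test). *Timp3* held 649 ± 186 CPM in endothelial-like cells (lowest 467, median 633, highest 1016) and 333 ± 251 in stromal-like cells (lowest 36.6, median 276, highest 831), a difference of 1.41 on the log2 scale in 6 of 7 pools that did not pass the test (exact permutation adjusted p = 0.0888). Stromal-like cells were 6.74 above tumor or epithelial-like cells on the log2 scale (adjusted p = 0.0375, exact permutation test), and the other 3 classes were at 1.58 CPM or less, with 0.254 in the background. Without the 2 Percoll libraries that stood apart, stromal-like cells were left in 6 pools, and the 5 differences above the next class that had passed were 3.57 for *Mmp2*, 2.09 for *Mmp3*, 3.04 for *Timp1*, 1.34 for *Timp2*, and 7.31 for *Timp3* on the log2 scale, in the same direction as with them. Each had the smallest p that an exact permutation test over 6 pools can give, which came to an adjusted p of 0.0662. When cells were placed by counts of detected markers in place of clusters, 5180 cells were called stromal and 2276 tumor or epithelial, against 264 and 8495 by clusters. How many of these stromal cells lay in the tumor or epithelial-like cluster was not tested. In this placement the order of stromal and macrophage-like cells for *Mmp2* (−0.85 on the log2 scale) and *Mmp14* (−0.17) and of stromal and tumor or epithelial-like cells for *Timp1* (−0.037) turned. The plot of levels by class shows the values of the clusters for each pool.

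**Figure D1:**
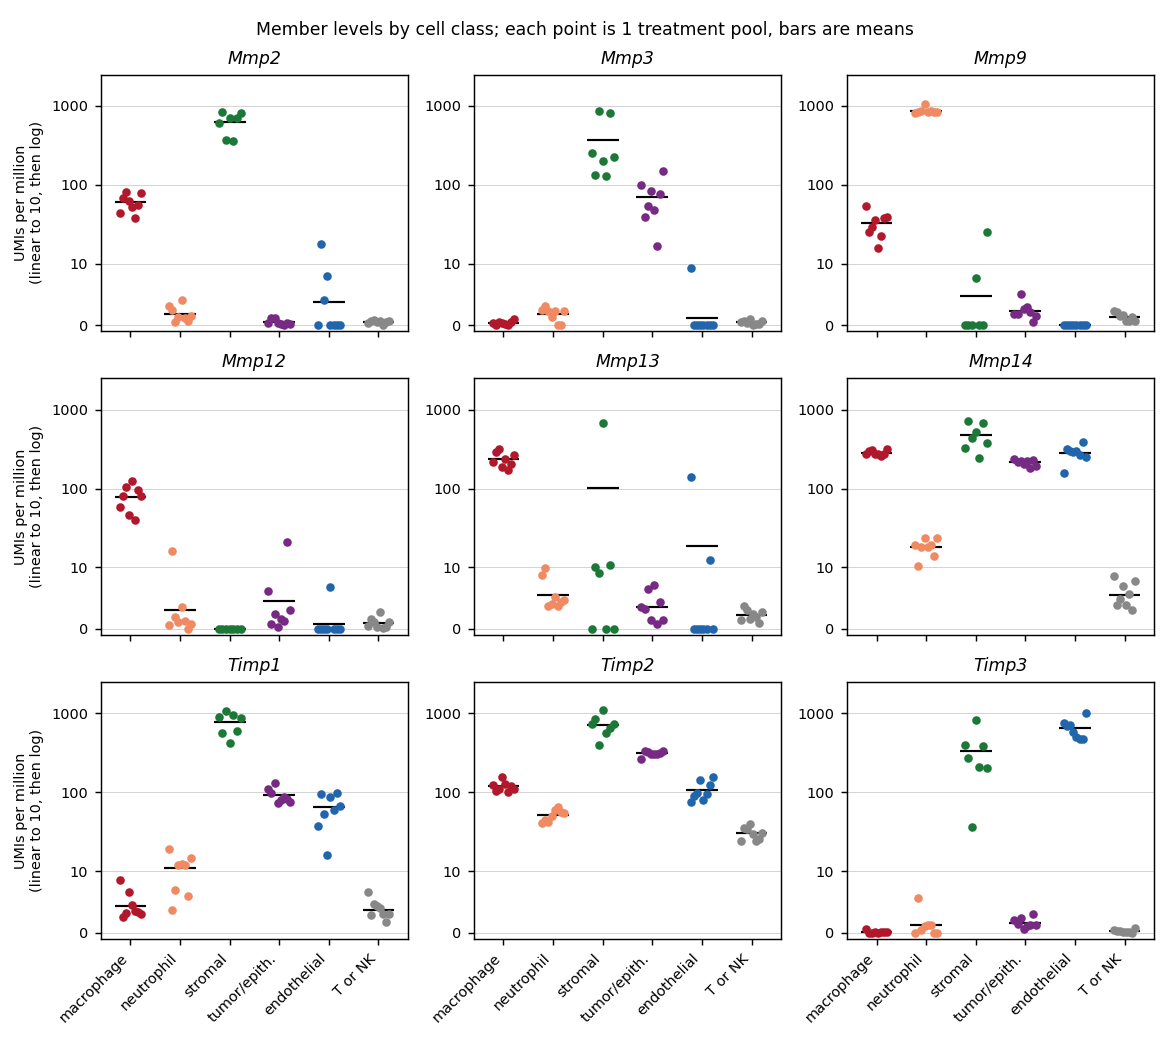
Level of each member in CPM (vertical axis, linear to 10 and log above) in 5 cell classes and in T or NK-like cells as background, where each point is a pool and each bar the mean over 8 pools (7 for stromal-like cells). *Mmp9* is highest in neutrophil-like cells (805–1066), *Mmp12* and *Mmp13* in macrophage-like cells apart from 1 stromal pool at 685 for *Mmp13*, and *Mmp2*, *Mmp3*, *Timp1*, and *Timp2* in stromal-like cells.

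A class with few cells can have a high level and still hold few of the transcripts. Of all *Mmp9* UMIs in kept cells, 82.7% lay in neutrophil-like and 12.1% in macrophage-like cells, and of all *Mmp13* UMIs 89.6% lay in macrophage-like cells. Macrophage-like cells also held 76.1% of the *Mmp2* UMIs and stromal-like cells 19.4%, although the level in CPM was higher in the stromal-like cells. *Mmp12* was shared by macrophage-like (65.2%) and monocyte-like cells (14.2%) and by the cells of a cluster (10.6%) whose leading genes included *Cd209a* beside *Clec9a*, *Wdfy4*, *Itgae*, and *Naaa*, genes known from different kinds of dendritic cells, and which is therefore not named as a single type. Tumor or epithelial-like cells held 71.0% of the *Mmp3* UMIs, against 16.1% in stromal-like cells, 42.5% of those of *Timp2*, and 43.1% of those of *Timp1*, of which a further 21.8% lay in a cluster of cycling cells whose leading genes included *Svs2*, *Svs5*, and the cell cycle gene *Cdc20* and which held *Krt8* at 672 CPM. *Mmp14* UMIs lay in macrophage-like (46.8%) and tumor or epithelial-like cells (30.1%), and *Timp3* UMIs in endothelial-like (53.3%) and stromal-like cells (29.2%). These shares depend on which cells were kept and on how each preparation recovered them.

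**Figure D2:**
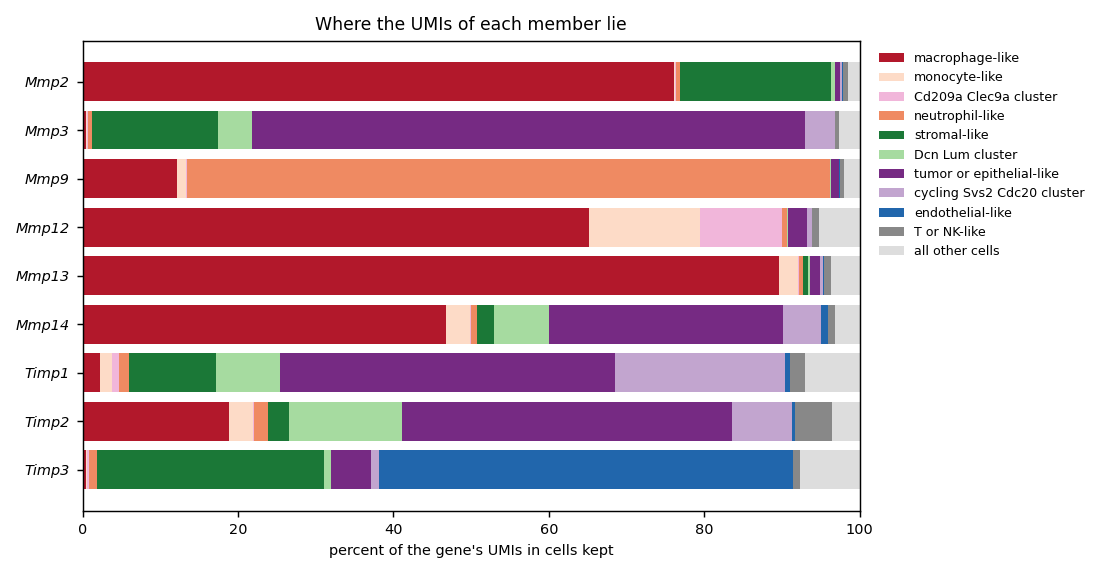
Percent of each member's UMIs in kept cells (horizontal axis) that lay in each cell class, as stacked bars over all 16 libraries. Neutrophil-like cells hold 82.7% for *Mmp9*, macrophage-like cells 89.6% for *Mmp13* and 76.1% for *Mmp2*, tumor or epithelial-like cells 71.0% for *Mmp3*, and endothelial-like cells 53.3% for *Timp3*.

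Within a class the members differed in how many cells carried them. *Mmp9* had a UMI in 62.2% of neutrophil-like cells, and in 50.5% after each cell was thinned to 1000 UMIs, against 0.401% of T or NK-like cells (0.161% thinned). The median depth was 1487 UMIs in neutrophil-like, 3843 in macrophage-like, and 3482 in T or NK-like cells. In macrophage-like cells *Mmp14* was found in 54.5% (21.4% thinned), *Timp2* in 32.8% (10.4%), *Mmp13* in 31.2% (14.7%), *Mmp2* in 18.1% (5.31%), *Mmp12* in 7.04% (3.60%), and *Mmp9* in 2.45% (1.25%). The same genes were found in 1.88%, 10.0%, 0.767%, 0.208%, 0.265%, and 0.401% of T or NK-like cells (0.626%, 3.32%, 0.264%, 0.0717%, 0.0897%, and 0.161% thinned). *Mmp12* and *Mmp9* were concentrated in few macrophage-like cells: the 118 cells with at least 10 *Mmp12* UMIs held 57.6% of its UMIs, the 45 with at least 10 *Mmp9* UMIs held 63.2%, and the most in a single cell were 120 and 90. By contrast the 27 cells with at least 10 *Mmp14* UMIs held 1.96% of that gene's UMIs, and no macrophage-like cell reached 10 for *Mmp2*. Of the macrophage-like cells with an *Mmp12* UMI, 69.9% also had an *Mmp13* UMI, against 31.2% of all macrophage-like cells, a description that does not separate shared expression from depth. In tumor or epithelial-like cells *Mmp3* was found in 9.12% (3.70% thinned), with up to 65 UMIs in 1 cell, while *Timp2* was found in 72.3% (26.4%), *Mmp14* in 60.2% (18.4%), and *Timp1* in 32.3% (8.45%). *Timp3* was found in 63.9% of endothelial-like (35.9% thinned) and 33.0% of stromal-like cells (16.5% thinned). In T or NK-like cells *Mmp3* was found in 0.165% (0.0598% thinned), *Timp1* in 1.35% (0.453%), and *Timp3* in 0.0932% (0.0308%). The median depth was 5829 UMIs in tumor or epithelial-like, 4823 in stromal-like, and 4304.5 in endothelial-like cells.

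The stromal-like cells were not uniform. Clustered again without the members, they fell into 4 sub-clusters that are described here with no test. The 93 cells led by *Rgs5* and *Myh11*, genes of pericytes and smooth muscle, held *Mmp2* at 138 CPM and *Mmp3* at 29.3 but *Timp1* at 883. Their leading genes also included *S100a9*, *Fcer1g*, and *Tyrobp*, which are known from myeloid cells. They held *C1qa* at 258 and *S100a8* at 109 CPM, against 7.23–44.5 and 0–3.99 in the other sub-clusters, so these levels may not be those of pericytes alone. The 84 cells led by *Cxcl13*, *C3*, and *Pi16* held the most *Mmp3* (1198 CPM), *Mmp2* (1072), and *Timp2* (1298). The 58 cells led by *Lrrc15*, *Col7a1*, and *Tnc*, the last 2 of which encode matrix proteins, held the most *Mmp14* (1169 CPM) and *Timp1* (1851), beside *Mmp2* at 741 and *Mmp3* at 157. Their *Mmp13* level of 270 came from 91 UMIs, of which 89 lay in 1 cell, and was 6.08 without that cell. The 29 cells led by *Wfdc2* were lowest for *Mmp2* (79.5), *Mmp14* (239), *Timp1* (282), and *Timp3* (36.2), and 27 of them came from the Percoll library of PancVAX + Anti-PD-1. They also carried the epithelial genes *Krt18* at 701 CPM and *Sox9* at 463. *Timp3* was spread over the first 3 sub-clusters at 235–409 CPM.

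**Figure D3:**
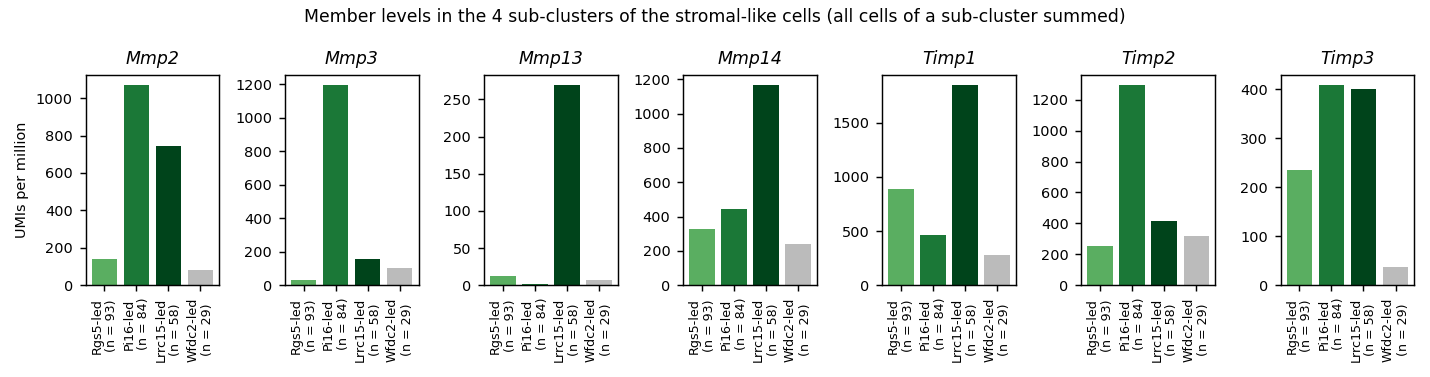
Level of 7 members in CPM (vertical axis) in the 4 sub-clusters of the 264 stromal-like cells, as bars over all cells of a sub-cluster with no error, since most libraries have too few cells. *Mmp2*, *Mmp3*, and *Timp2* are highest in the *Cxcl13* sub-cluster (1072, 1198, and 1298), and *Mmp14* and *Timp1* in the *Lrrc15* sub-cluster (1169 and 1851). The *Mmp13* bar of the *Lrrc15* sub-cluster (270) rests on 1 cell with 89 of 91 UMIs.

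Genes with the most similar pattern were ranked by Pearson's r over the 69 combinations of a library and 1 of the 5 classes, among 5968 genes, as a description with no test, since the points share libraries and the classes set most of the spread. *Mmp2* was closest to *Col14a1* (r = 0.937), *Spon1*, and *Gpx3*, *Mmp3* to *Loxl1* (0.950), *Egfr*, and *Efemp1*, and *Mmp9* to *F630028O10Rik* (0.978), *Trem1*, and *Mefv*. *Mmp12* was closest to *Zmynd15* (0.849), *Asah1*, and *H2-Aa*, *Mmp13* to *C6* (0.889), *Ms4a7*, and *Tlr12*, and *Mmp14* to *Rps4x* (0.964), *Fcgrt*, and *Rps24*. *Timp1* was closest to *Bgn* (0.954), *Pcolce*, and *Bmp1*, *Timp2* to *Txndc5* (0.907), *Efemp2*, and *C1ra*, and *Timp3* to *Plpp3* (0.973), *Hspg2*, and *Pxdn*. Among the members themselves the highest values were 0.819 for *Mmp3* with *Timp2*, 0.780 for *Mmp3* with *Timp1*, and 0.759 for *Mmp12* with *Mmp13*, and the lowest was −0.844 for *Mmp9* with *Mmp14*.

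The second comparison asked whether PancVAX or either antibody changed the members, in 30 combinations of a member and a class that passed the filter on low counts. In 24 of them 4 pools with an agent were set against 4 without. In the 6 of the stromal-like class the Anti-PD-1 pool was missing, so that 3 pools with anti–PD-1 were set against 4 without, and 4 with PancVAX or anti–CTLA-4 against 3 without. The pools of the 2 small classes also differed in the preparations that entered. For endothelial-like cells 3 of the 4 pools without PancVAX, but 1 of the 4 with it, had their whole-tumor library only, and the same 3 against 1 held for the pools without and with anti–PD-1. No combination passed for any agent by edgeR's quasi-likelihood test, at a Benjamini-Hochberg adjusted p under 0.05 over all genes of a class and a log2 fold change over 0.5 in size. Of the genes tested in the 5 classes, 0.0360% passed for PancVAX, 0.0333% for anti–PD-1, and 0.00554% for anti–CTLA-4. At an unadjusted p under 0.05 there were 2 of 30 combinations for PancVAX, 7 for anti–PD-1, and 6 for anti–CTLA-4, where 10.1%, 6.30%, and 5.12% of all genes had one. DESeq2 called 0, 1, and 1 of the 30, and 0.175%, 0.0526%, and 0.0416% of all genes. The median log2 fold change over the 30 was 0.04, 0.08, and −0.09, and the groups with and without the agent did not overlap in 1, 2, and 1 of them, against 5.79%, 3.03%, and 2.57% of all genes, so that the counts without overlap were near the background. In simulated data this test recovered 84.5% of 200 genes changed 2-fold by PancVAX in macrophage-like, 80% in neutrophil-like, and 76% in tumor or epithelial-like cells, but 39.5% in endothelial-like and 0% in stromal-like cells, so that a 2-fold change was not detectable with the cells and pools of the stromal-like class. All 200 genes were changed at once, which eases the adjusted limit. In the data 0, 12, and 0 genes passed for PancVAX in macrophage-like, neutrophil-like, and tumor or epithelial-like cells. The simulated rates can therefore lie above the rate for a single changed gene. All 3 comparisons use the same 8 pools.

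For PancVAX, the only combination in which the pools did not overlap was *Timp2* in neutrophil-like cells. The 4 pools with PancVAX held 40.3, 44.6, 41.5, and 50.5 CPM, and the 4 without held 60.3, 65.6, 55.6, and 54.1. The log2 fold change was −0.46 (SE 0.13; edgeR Benjamini-Hochberg adjusted p = 0.371), and it was negative in all alternatives run, from −0.50 to −0.13. The neutrophil-like class joins 2 clusters, of 5423 cells with *Timp2* at 36.2 CPM and of 2671 cells with 83.4. The second gave 25.1–39.8% of the class in pools with and 30.8–38.7% in pools without PancVAX. Within it *Timp2* was 53.5–82.7 CPM with and 82.8–127 without PancVAX. There the groups all but met, at 59 UMIs in PancVAX + Anti-CTLA-4 and 29 UMIs in Isotype Control. Within the first cluster *Timp2* was 28.5–40.0 and 31.0–43.5, where the pools overlapped. *Mmp9* in the same cells was 892 ± 118 CPM with and 842 ± 11.9 without the vaccine (log2 fold change 0.03, edgeR Benjamini-Hochberg adjusted p = 0.97). The pools without PancVAX lay within 832–859 CPM, and PancVAX + Anti-CTLA-4 was highest at 1066. *Mmp13* in macrophage-like cells was 253 ± 60.3 with and 220 ± 41.3 without PancVAX, and *Timp1* in tumor or epithelial-like cells 102 ± 23.6 and 81.1 ± 4.55 CPM (edgeR Benjamini-Hochberg adjusted p = 0.749 and 0.503). The log2 fold change of *Mmp2* was 0.16 in macrophage-like and 0.15 in stromal-like cells. *Mmp12* in tumor or epithelial-like cells, the other combination with an unadjusted p under 0.05, was 2.42 ± 2.61 with and 6.76 ± 9.48 CPM without PancVAX (log2 fold change −1.47, edgeR Benjamini-Hochberg adjusted p = 0.371). The high mean without PancVAX came from the Anti-PD-1 pool at 20.9, and without that pool the log2 fold change was −0.39. It turned to 0.90 with cells placed by marker counts. In macrophage-like cells *Mmp12* was at −0.28. Over the classes in which they were tested, the log2 fold change ranged from 0.03 to 0.57 for *Mmp9*, from 0.09 to 0.39 for *Mmp13*, from −0.72 to 0.43 for *Timp1*, from −0.46 to 0.38 for *Timp2*, from −0.57 to 0.02 for *Mmp3*, from −0.22 to 0.29 for *Mmp14*, and from −0.14 to 0.71 for *Timp3*.

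For anti–PD-1, *Mmp12* in macrophage-like cells had the lowest p-value. Over all pools, 118 of the 12591 macrophage-like cells, each with at least 10 *Mmp12* UMIs, held 57.6% of the *Mmp12* UMIs of the class. The 4 pools with anti–PD-1 held 79.5, 103, 123, and 95.9 CPM, and the 4 without held 58.8, 46.2, 40.4, and 80.3. The highest pool without anti–PD-1, Isotype Control, lay just above the lowest pool with it, so that the groups overlapped. The log2 fold change of 0.89 (SE 0.16) did not pass by edgeR (Benjamini-Hochberg adjusted p = 0.41) but passed by DESeq2 (adjusted p = 6.61e-05), and it ranged from 0.52 to 1.05 over the alternatives. *Mmp13* in the same cells was 262 ± 51.0 with and 210 ± 41.2 CPM without anti–PD-1 (log2 fold change 0.34), and *Mmp9* was 27.1 ± 9.22 and 37.7 ± 12.8 (log2 fold change −0.45; edgeR Benjamini-Hochberg adjusted p = 0.817 and 0.794). The 2 combinations without overlap were *Mmp14* in neutrophil-like cells, at 15.2 ± 3.62 with and 21.6 ± 2.42 CPM without anti–PD-1, and *Mmp14* in endothelial-like cells, at 329 ± 43.6 with and 239 ± 56.4 without (edgeR Benjamini-Hochberg adjusted p = 0.58 and 0.755). The nearest neutrophil pools were PancVAX + Anti-PD-1 at 18.2 CPM (39 UMIs) with and Anti-CTLA-4 at 19.4 (16 UMIs) without the antibody. In endothelial-like cells they were PancVAX + Anti-PD-1 at 303 (75 UMIs) and PancVAX + Anti-CTLA-4 at 287 (36 UMIs). There 3 of 4 pools without but 1 of 4 with anti–PD-1 had their whole-tumor library only. *Timp1* in neutrophil-like cells was 7.2 and 14.4 CPM (log2 fold change −0.98, edgeR Benjamini-Hochberg adjusted p = 0.527). How much of these neutrophil levels came from other cells was not tested. *Timp3* in stromal-like cells was 173 ± 123 in 3 pools with and 453 ± 267 CPM in 4 pools without anti–PD-1 (log2 fold change −1.99, edgeR Benjamini-Hochberg adjusted p = 0.523). Of the 3 pools with anti–PD-1, 2 entered with their Percoll library only, as no pool without it did, so that antibody and preparation are not separated here. The lowest pool was PancVAX + Anti-PD-1, at 36.6 CPM in 71 cells. Of these cells, 27 lay in the *Wfdc2* sub-cluster (*Timp3* at 36.2 CPM) and 22 in the *Lrrc15* sub-cluster (400), and the part of this mixture in the difference was not tested. With libraries in place of pools and preparation as a covariate the log2 fold change of *Timp3* was −1.88 (edgeR Benjamini-Hochberg adjusted p = 0.287). In whole-tumor libraries only it was −1.52, but 1 library there had anti–PD-1, so that the antibody cannot be told apart from that library. Without the Percoll libraries of PancVAX and of PancVAX + Anti-PD-1 it was −1.30. It passed in 3 of the alternatives, with no filter on low counts (edgeR Benjamini-Hochberg adjusted p = 0.00115), with cells placed by marker counts (0.047), and with the *Dcn* and *Lum* cluster added to the class (0.0104). That cluster itself held 12 *Timp3* UMIs in 1994 cells, and its *Col1a1* level was near that of tumor or epithelial-like cells. The last of these 3 fits is therefore not one of stromal-like cells alone. *Mmp13* in tumor or epithelial-like cells was 5.35 ± 1.81 with and 1.80 ± 1.17 CPM without anti–PD-1, beside 2.20 in T or NK-like cells. The pools with the antibody held 3.30, 6.53, 7.17, and 4.41 CPM, and those without held 3.49, 1.46, 0.807, and 1.42, so that the groups overlapped. The log2 fold change of 1.73 (SE 0.42) did not pass (edgeR Benjamini-Hochberg adjusted p = 0.864). It ranged from 1.19 to 2.15 when each pool was left out and passed with no filter on low counts (adjusted p = 0.0169, edgeR with Benjamini-Hochberg adjustment). In the Anti-PD-1 + Anti-CTLA-4 pool, the highest, 13 of 43 UMIs lay in 1 cell. For *Mmp2* the log2 fold change was 0.20 in macrophage-like and −0.57 in stromal-like cells, and *Mmp12* in tumor or epithelial-like cells was at 0.70. Over the classes tested it ranged from −0.57 to 0.12 for *Mmp3*, from −0.45 to 0.46 for *Mmp9*, from −0.49 to 0.46 for *Mmp14*, from −0.98 to 0.92 for *Timp1*, from −0.60 to 0.08 for *Timp2*, and from −1.99 to 0.54 for *Timp3*.

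For anti–CTLA-4, *Mmp9* in macrophage-like cells was 24.9 ± 8.59 with and 39.9 ± 10.1 CPM without the antibody (log2 fold change −0.70, SE 0.15). It did not pass by edgeR (Benjamini-Hochberg adjusted p = 0.966), and the 45 cells with at least 10 UMIs held most of its UMIs. *Mmp12* in tumor or epithelial-like cells was the combination without overlap, at 0.366–1.67 CPM with and 2.38–20.9 without anti–CTLA-4. Its log2 fold change of −2.72 did not pass by edgeR (Benjamini-Hochberg adjusted p = 0.379) but passed by DESeq2 (−2.82, adjusted p = 0.00176), at levels against a background of 1.00 CPM in T or NK-like cells. The highest pool, Anti-PD-1, had 36 of its 76 UMIs in 1 cell, and the log2 fold change was −1.78 without that pool and ranged from −3.40 to −1.78 when each pool was left out. *Mmp3* in these cells was 46.9 ± 27.8 with and 94.6 ± 40.9 without the antibody, and *Timp3* in stromal-like cells 423 ± 281 and 212 ± 181 (log2 fold change −0.96 and 1.58, edgeR Benjamini-Hochberg adjusted p = 0.78 and 0.974). *Timp1* in stromal-like cells was 634 ± 229 in 4 pools with and 953 ± 102 CPM in 3 pools without anti–CTLA-4 (log2 fold change −0.84, edgeR Benjamini-Hochberg adjusted p = 0.998), and the groups overlapped. *Timp3* in tumor or epithelial-like cells was 1.02 ± 0.341 and 2.14 ± 0.761 CPM (log2 fold change −0.98, edgeR Benjamini-Hochberg adjusted p = 0.797), where 9 of the 11 UMIs of the Anti-PD-1 pool lay in 1 cell. The log2 fold change of *Mmp2* was −0.25 in macrophage-like and 0.25 in stromal-like cells, that of *Mmp12* in macrophage-like cells was −0.30, and that of *Mmp3* in stromal-like cells was −0.71. Over the classes tested it ranged from −0.70 to 0.15 for *Mmp9*, from −0.41 to 0.11 for *Mmp13*, from −0.10 to 0.54 for *Mmp14*, from −0.84 to 0.00265 for *Timp1*, and from −0.15 to 0.48 for *Timp2*. In the *Dcn* and *Lum* cluster *Timp1* was 82.8 ± 11.4 with and 64.4 ± 4.78 CPM without PancVAX (edgeR Benjamini-Hochberg adjusted p = 0.404).

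**Figure D4:**
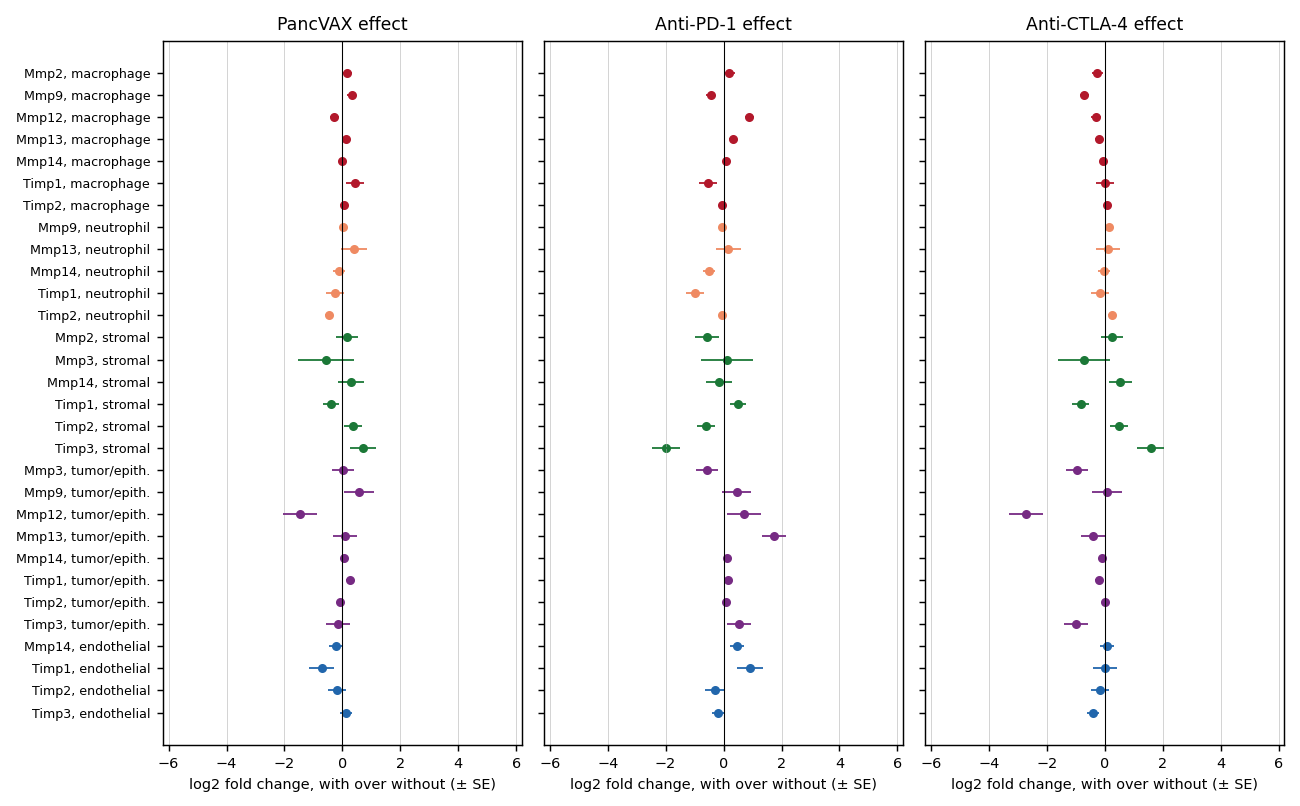
Log2 fold change with over without each agent (horizontal axis, 1 panel for each agent) for the 30 combinations of a member and a class, where points are edgeR estimates over the pools and bars their standard errors. No combination passed the test, and the widest bars are those of stromal-like cells.

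The third comparison set the Percoll libraries against the whole-tumor libraries within pools, over 29 combinations. Only pools with both libraries bear on it. These were 8 for macrophage-like, neutrophil-like, and tumor or epithelial-like cells, but 4 for endothelial-like and 2 for stromal-like cells. The preparations were also the sequencing batches, and the 2 cannot be told apart. Of all genes tested, 5.42% differed by edgeR, and 2 of the 29 member combinations did by edgeR and by DESeq2, while DESeq2 called 3.42% of all genes. An unadjusted p under 0.05 was found in 5 of the 29, a smaller share than the 26.9% of all genes. *Mmp12* in macrophage-like cells was higher in the Percoll libraries, at 96.0 ± 43.6 CPM against 63.1 ± 23.0 (SD, n = 8 libraries each, log2 fold change 0.67, SE 0.12, edgeR Benjamini-Hochberg adjusted p = 0.000166), where 5.18% of the genes tested in these cells differed. It was higher in 7 of 8 pools, and the exception was Anti-PD-1, at 104 in the whole-tumor and 85.7 in the Percoll library. The widest gaps were those of PancVAX + Anti-PD-1, at 62.1 and 160.3, and of Anti-PD-1 + Anti-CTLA-4, at 74.5 and 163. Macrophage-like cells came from 2 clusters, of 8014 cells with *Mmp12* at 74.6 CPM and of 4577 cells with 98.5, and Percoll libraries gave 46.3% of the first and 32.6% of the second. The 118 macrophage-like cells with at least 10 *Mmp12* UMIs held 57.6% of the *Mmp12* UMIs of the class. Without the Percoll libraries of PancVAX and of PancVAX + Anti-PD-1 the log2 fold change was 0.53 (edgeR Benjamini-Hochberg adjusted p = 0.00192).

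*Mmp3* in tumor or epithelial-like cells was the other, at 86.5 ± 52.6 CPM in the Percoll and 56.2 ± 39.3 in the whole-tumor libraries (log2 fold change 0.65, SE 0.13, edgeR Benjamini-Hochberg adjusted p = 0.00298), where 2.00% of the genes tested in these cells differed. It was higher in 7 of 8 pools, and the exception was PancVAX + Anti-PD-1 + Anti-CTLA-4, at 38.2 against 40.0. The Percoll library of PancVAX + Anti-PD-1, 1 of the 2 that stood apart, gave 2360 of the 8495 cells, and without both the log2 fold change was 0.63 (edgeR Benjamini-Hochberg adjusted p = 0.00363). The difference between pools was wider than that between preparations, from 10.2 and 22.4 in Anti-CTLA-4 to 142 and 169 in Isotype Control. When the upper limits on genes and UMIs were lifted, which keep 19.0% of these cells, the log2 fold change was 0.25 and the call was lost. Neither gene passed without the pool as a block, at a log2 fold change of 0.68 for *Mmp12* (adjusted p = 0.0719) and 0.54 for *Mmp3* (adjusted p = 0.488, edgeR with Benjamini-Hochberg adjustment). *Mmp13* in macrophage-like cells was higher in the Percoll libraries in 8 of 8 pools, at 263 ± 57.7 against 218 ± 47.9 CPM, with an adjusted p of 2.12e-05 (edgeR with Benjamini-Hochberg adjustment) but a log2 fold change of 0.34, under the limit on size. In the other 3 classes tested the log2 fold change of *Mmp13* was −3.41 in stromal-like, 0.49 in tumor or epithelial-like, and 4.89 in endothelial-like cells, and none passed (edgeR Benjamini-Hochberg adjusted p = 0.993, 0.433, and 0.784). With the pool as a block only pools with both libraries bear on these values. The stromal value rests on 3 UMIs against 0 in the pool of Anti-CTLA-4, and the endothelial value on the pool of PancVAX, with 15 UMIs in the Percoll library (13 of them in 1 cell) against 0, so that both depend on the prior count of the fit and are no bounds. *Timp2* in macrophage-like cells was likewise under the limit, at 0.21 (edgeR Benjamini-Hochberg adjusted p = 0.00889). *Mmp9* in neutrophil-like cells was 897 ± 93.9 in the Percoll and 832 ± 90.7 in the whole-tumor libraries and did not pass (edgeR Benjamini-Hochberg adjusted p = 0.128). *Mmp12* in tumor or epithelial-like cells was at 0.29, *Mmp3* in stromal-like cells at −0.997, *Mmp9* in macrophage-like cells at 0.23, and *Timp2* in the other 4 classes between −0.81 and 0.25 on the log2 scale, and none of these passed. The other members did not pass in any class tested. Their log2 fold changes ranged from −0.50 to 0.00113 for *Mmp2*, from −0.40 to 0.10 for *Mmp14*, from −0.65 to 0.06 for *Timp1*, and from −0.10 to −0.04 for *Timp3*. The effect of PancVAX differed between the preparations in 0 of 28 combinations (edgeR), with 1 at an unadjusted p under 0.05, where 3.44% of all genes had one.

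**Figure D5:**
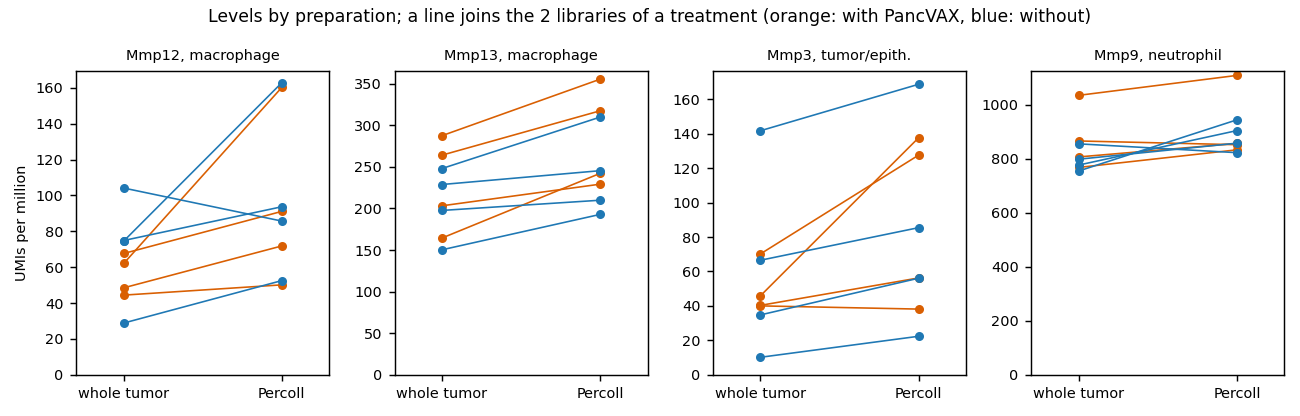
Level in CPM (vertical axis) in the whole-tumor and the Percoll library of each treatment, joined by a line (orange with PancVAX, blue without), for *Mmp12* and *Mmp13* in macrophage-like, *Mmp3* in tumor or epithelial-like, and *Mmp9* in neutrophil-like cells. *Mmp13* rises along all 8 lines and *Mmp12* and *Mmp3* along 7 of 8.

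Other genes of the pathway were taken from 3 lists, and the counts of combinations below cover the 5 classes. For the 3 agents, none of 10 combinations of other MMPs, 34 of ADAM and ADAMTS proteases, or 33 of other inhibitors, activators, and receptors passed by edgeR, and DESeq2 called 1 for anti–PD-1 in the last list. At an unadjusted p under 0.05 these lists had 1, 6, and 8 combinations for PancVAX, 1, 0, and 8 for anti–PD-1, and 3, 3, and 2 for anti–CTLA-4, against the shares of all genes given above (10.1%, 6.30%, and 5.12%). Between preparations none of 9 combinations of other MMPs (1 at an unadjusted p under 0.05) and none of 32 of ADAM and ADAMTS proteases (7, where 26.9% of all genes had one) passed by edgeR or DESeq2, while 6 of 32 of the third list were higher and 1 was lower in the Percoll libraries by edgeR, where 5.42% of all genes differed. DESeq2 called 5 of these 32 (3.42% of all genes), and 14 had an unadjusted p under 0.05 (26.9% of all genes). *Plaur*, the receptor of the plasminogen activator urokinase, was higher in macrophage-like (log2 fold change 0.71), neutrophil-like (0.61), and tumor or epithelial-like cells (0.74), and *Plau*, which encodes urokinase, was higher in macrophage-like (0.62) and neutrophil-like cells (2.22). In endothelial-like cells *Timp4*, a further tissue inhibitor of metalloproteinases, was lower in the Percoll libraries by 4.01 on the log2 scale (edgeR Benjamini-Hochberg adjusted p = 0.0108). With the pool as a block this value rests on the 4 pools with both endothelial-like libraries. How far its size depends on the prior count of the fit was not tested. The *Dcn* and *Lum* cluster lies outside these counts. In it *Plaur* (0.95) and *Adamts1* (0.52) were higher and *Adam10* was lower (−0.54) in the Percoll libraries (edgeR Benjamini-Hochberg adjusted p = 9.72e-07, 0.0450, and 0.0130). Of the 7478 genes tested in this cluster, 249 differed.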

How the data were processed

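Single-cell RNA sequencing (10x 5′ chemistry) of 16 libraries, 1 whole-tumor and 1 Percoll library for each of 8 treatments, was taken from the deposited matrix of raw UMI counts per gene and barcode, which the authors made with Cell Ranger 4.0.0 on mm10, with Seurat also listed in the submitters' processing notes. Libraries were told apart by the suffix of each barcode, and no column of the matrix was left unused. Tumors were pooled by treatment before the libraries were made, so the tests compare pools.

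Cells with 200–3000 genes, 1000–10000 UMIs, under 10% mitochondrial UMIs, and no UMI of a hemoglobin gene were kept, after the limits of the study. The upper limits remove large cells, and tumor and stromal cells most of all. Without them 120419 of 144994 barcodes would enter. The 9 members and the wider lists were left out of the 2000 variable genes, and 25 principal components, 20 neighbors, and Leiden clusters at resolution 0.6 gave 25 clusters (scanpy 1.11.5, leidenalg 0.10.2, random seed 1). Clusters were named by hand from at least 3 raised markers of a class and from their leading genes, which decided where 2 lists were raised. A difference from the cell types of the study may come from these rebuilt names. Scrublet marked 248 cells (0.432%), too few to count as a working doublet call, and no doublets were removed. Pairs of libraries shared 5–45 barcodes (median 17), 0.205%–1.26% of the smaller library.

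UMIs were summed by class in each library with at least 10 cells of the class. Levels are CPM of these sums over a pool. Treatment effects were fitted over pools as the 3 agents together, and preparation effects over libraries with the pool as a block, on all genes of a class that passed a filter on low counts, with edgeR 4.0.16 (TMM factors, quasi-likelihood F test, Benjamini-Hochberg adjustment). The same treatment has 1 library in each preparation, and the pairing comes from the shared treatment. A call needed an adjusted p under 0.05 and a log2 fold change over 0.5 in size. Tests were checked on simulated data with 200 genes changed. The recovery of 2-fold changes between preparations was 93.5% in macrophage-like, 86% in neutrophil-like, 93.5% in tumor or epithelial-like, 22% in endothelial-like, and 2% in stromal-like cells. Alternatives were libraries in place of pools, no filter on low counts, DESeq2 1.42.0, each preparation alone, no upper limits on cells, cells named by marker counts, a mitochondrial limit of 5%, Scrublet doublets left out, and each pool left out. Fits without the 2 libraries that stood apart, cells placed by their nearest clustered cells, and the *Dcn* and *Lum* cluster added to the stromal class were chosen after seeing the data.

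The 9 members were named in every comparison, called or not (with their values where an unadjusted p between treatments was under 0.05, and otherwise often as ranges over classes), and genes of the wider lists (17 other MMPs, 11 other inhibitors, activators, and receptors, and 13 ADAM and ADAMTS proteases) where called, except 1 call that is not reported here. The 3 genes with the highest r to each member over log2(CPM + 1) were named among genes with a mean of at least 20 CPM. Members and lists were chosen with earlier results of these data known. Promoter sequences and positions are from RefSeq (GRCm38.p6), and other software was Python 3.11.15, numpy 2.4.6, scipy 1.17.1, pandas 2.3.3, and R 4.3.3. T cell receptor contigs were not used here.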

Additional observations from a re-analysis of the deposited data

Results flagged for a closer look

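In 4 of the 54 groups of 4 pools that were examined, 1 pool lay far from the other 3 (Dixon's criterion), and chance alone gives this in about 1 of 20 groups. *Mmp12* in tumor or epithelial-like cells was at 20.9 CPM in the Anti-PD-1 pool, against 1.34–3.08 in the other pools without PancVAX, and 36 of its 76 UMIs lay in 1 cell. *Mmp3* in stromal-like cells was at 864 CPM in PancVAX + Anti-PD-1, against 133–250 in the other pools with PancVAX, and that pool rested on its Percoll library only, 1 of the 2 that stood apart. *Timp3* in endothelial-like cells was at 1016 CPM in Isotype Control, against 467–505 in the other pools without PancVAX. *Timp3* in tumor or epithelial-like cells was at 3.03 CPM in the Anti-PD-1 pool, against 1.00–1.21 in the others without PancVAX, and 9 of its 11 UMIs lay in 1 cell.

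Outside the classes compared, *Mmp12* reached a mean of 124 ± 63.0 CPM in monocyte-like cells and 122 ± 70.2 CPM in the cluster with *Cd209a* and *Clec9a* among its leading genes (SD, n = 8 pools), against 1.00 CPM in T or NK-like cells. An unnamed cluster of 536 cells, of which 373 came from the Percoll library of PancVAX + Anti-PD-1, had *Mmp12* among its leading genes, at 129.6 CPM over all its cells, beside *Mmp13* at 172, *Mmp14* at 232, and *Timp2* at 264. It carried the macrophage gene *C1qa* at 1328 CPM together with *Krt8* at 494, and it held 4.74% of the *Mmp12* UMIs.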

How the results depend on the processing

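Most simulated 2-fold changes were not recovered in the stromal-like (264 cells) and endothelial-like classes (266 cells), and the parts of cell number, number of pools, and depth per cell in this were not separated. The upper limits on genes and UMIs removed most tumor and stromal cells, and the whole design has 1 pool per treatment. Over all alternatives, the sign changed at least once in 26 of 30 member combinations for PancVAX, 18 of 30 for anti–PD-1, 20 of 30 for anti–CTLA-4, 19 of 29 for preparation, and, counting values of 0, 15 of 36 pairs of classes.

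Against 0 combinations called for PancVAX, 1 was called with no filter on low counts, 1 in whole-tumor libraries only, and 3 with no upper limits and cells placed by marker counts. Leaving out each pool gave 0. Against 0 for anti–PD-1, 1 was called by DESeq2, 5 with no filter, 1 in whole-tumor libraries only, and 1 with cells placed by marker counts. Leaving out each pool gave 0–1, and the 1 was *Mmp3* in tumor or epithelial-like cells without the Anti-CTLA-4 pool (log2 fold change −1.02). Against 0 for anti–CTLA-4, 1 was called by DESeq2, 5 with no filter, 1 in whole-tumor libraries only, and 1 with no upper limits and cells placed by their nearest clustered cells. Leaving out each pool gave 0. The calls for *Mmp13* in stromal-like cells with no filter and in whole-tumor libraries only rest on the pool where 1 cell held all 89 UMIs, and the cause of the others was not tested. In Percoll libraries only, the stromal-like class could not be fitted. Genes called over all 5 classes ranged over these alternatives from 1 to 637 for PancVAX (13 in the report), from 0 to 228 for anti–PD-1 (12), from 0 to 220 for anti–CTLA-4 (2), and from 1148 to 2676 for preparation (1819).

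Of the 2 combinations called between preparations, 0 passed with no replicate block (the pool), and with no upper limits and cells placed by marker counts there were 5. Leaving out each pool gave 1–2, and without PancVAX + Anti-CTLA-4 *Mmp3* in tumor or epithelial-like cells fell under the limit on size (0.49). *Mmp3* was at 0.46 with cells placed by marker counts and at 0.21 when the upper limits were lifted as well. *Mmp12* in macrophage-like cells ranged from 0.53 to 1.02. *Timp1* in neutrophil-like cells turned to 0.52 with no upper limits and cells placed by marker counts.

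Of 36 pairs of neighboring classes, 15 passed, with no share of all genes at hand to set beside this count. The number was 9 in whole-tumor libraries only, 7 in Percoll libraries only, 10 without the 2 Percoll libraries that stood apart, and 24 with no upper limits and cells placed by their nearest clustered cells. Leaving out each pool gave 0–15, since the smallest p that the exact permutation test allows is larger with fewer pools. Of the 15 pairs that turned or went to 0, 3 had passed, and these turned only where cells were placed in another way. Of the 12 that had not passed, 5 turned when a pool was left out, down to −0.99 for *Mmp13* in stromal over neutrophil-like cells, and 5 in other settings, down to −1.81 for the same pair in Percoll libraries only. The values below are those of turned pairs that passed in either direction. With no upper limits and marker counts they were *Mmp2* in stromal over macrophage-like cells (−1.64) and in neutrophil over endothelial-like cells (−1.32), *Mmp14* in stromal over macrophage-like (−0.22) and macrophage over endothelial-like cells (−0.66), *Timp1* in stromal over tumor or epithelial-like cells (−0.15), and *Timp2* in endothelial over neutrophil-like cells (−0.95). With marker counts alone they were *Mmp2* (−0.85) and *Mmp14* (−0.17) in stromal over macrophage-like and *Timp1* in stromal over tumor or epithelial-like cells (−0.037). With the nearest clustered cells they were *Mmp2* in neutrophil over endothelial-like (−0.87), *Mmp9* in tumor or epithelial over stromal-like (−2.36), and *Mmp14* in macrophage over endothelial-like cells (−0.45). Marker counts called 5180 cells stromal, and 34425 without upper limits, against 264 by clusters. They called 2276 cells tumor or epithelial, and 15160 without upper limits, against 8495 by clusters.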

Other observations

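Classes outside the comparisons carried some members as well. Monocyte-like cells held *Timp2* at 136 CPM, *Mmp14* at 131, and *Mmp13* at 47.6. The cluster of cycling cells with *Svs2* and *Cdc20* among its leading genes held *Timp2* at 172 CPM, *Timp1* at 162 ± 56.0, and *Mmp14* at 102. The *Dcn* and *Lum* cluster held *Timp2* at 439 CPM, *Mmp14* at 206, *Timp1* at 73.6, and *Mmp3* at 18.4 as means over 8 pools. Within the macrophage-like class the cluster of 8014 cells held *Mmp13* at 244 CPM and *Mmp14* at 307, and the cluster of 4577 cells, with a median of 1639 UMIs, held 182 and 171. Within the neutrophil-like class *Mmp9* was at 926 CPM in the first and 794 in the second of its 2 clusters.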
